A study of Homo sapiens with 4 samples.

Results

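The cytoplasmic actins and their most abundant binding proteins were followed in SH-SY5Y cells exposed to sodium nitroprusside (SNP). The set comprised 10 genes of the 58243 in each expression table, taken by symbol: the actins ACTB and ACTG1, the profilins PFN1 and PFN2, the beta-thymosins TMSB4X and TMSB10, the cofilins CFL1 and CFL2, and the alpha-actinins ACTN1 and ACTN4. The names were chosen by expression values of these same libraries, with the SNP against control differences known. Their own differences are therefore given as a description, and whether a member passed a threshold is not taken as evidence. SH-SY5Y is an established human neuroblastoma line of sympathetic origin. The control group comprised 2 libraries of cells given no agent, and the SNP group 2 libraries of cells kept with SNP, a donor of nitric oxide, for 8 h. All cells were seeded 24 h before treatment, and the treatment text describes them as differentiated with retinoic acid. The labels call the SNP samples oxidized and do not say which of several doses was sequenced.

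The labels describe the wells of each treatment as belonging to 1 experiment and do not say that the libraries a and b came from separate cultures, so p-values measure the spread between these libraries, which may be technical. Summed gene counts ran from 5613144 to 8056550 per library, and a floor of 3 counts corresponded to 0.372 to 0.534 counts per 1000000 counts (CPM), for counting error only. No preparation or sequencing batch is labelled, so a batch that coincided with the groups cannot be told apart from the treatment. Of the 8 adrenergic neuroblastoma markers, which define the sympathetic identity of the line, TH was at 0 counts in every library, and the summed level of the list was 2165 and 2230 CPM in control and 1715 and 1847 CPM in SNP libraries. Its members went opposite ways, 2 higher and 4 lower: DBH, a noradrenaline-forming enzyme, fell from 625 and 722 CPM to 220 and 298 CPM, and HAND2, a lineage factor, rose from 531 and 527 CPM to 683 and 722 CPM. The 8 markers of the mesenchymal neuroblastoma state, which include VIM, summed to 246 and 270.4 CPM in control and 183 CPM in each SNP library. VIM alone made up 182 and 215 CPM of this in control and 128 and 135 CPM in SNP libraries. It did not pass with the base composition offsets described below (-0.22). Of the 5 genes tested 2 passed, both lower, while CD44 (0.16) and WWTR1 (0.76) lay above 0 without passing. The 6 genes known to respond to retinoic acid summed to 448 and 510.2 CPM in control and 379 and 394 CPM in SNP libraries, with CYP26A1, a principal target, at 0 counts throughout. RET alone made up 422 and 486 CPM of this in control and 356 and 371 CPM in SNP libraries, and was the 1 gene of the list that passed. The part of these marker shifts in the results below was not tested. In such bulk samples, fewer cells of a type and less RNA per cell cannot be told apart.

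Actin exists as single molecules and as filaments that grow at one end and shrink at the other. Profilin hands ATP-loaded monomers to growing ends, beta-thymosins hold monomers in reserve, cofilin severs old filaments, and alpha-actinin ties filaments into bundles. In neurons this cycle shapes growth cones and dendritic spines. The monomer pool also feeds back on transcription: monomeric actin holds the coactivators MRTFA and MRTFB away from serum response factor (SRF), which binds the CArG box in the promoters of many cytoskeletal genes. Actin is in addition a known target of oxidation by enzymes of the MICAL family, which the reductase MSRB1 reverses.

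The members form pairs of related genes, and how far their reads can be told apart rests on their sequences. The coding sequences of ACTB and ACTG1 have 1128 bases each, differ at 99 of them (91.2% identity) and share no identical run longer than 59 bases, which is less than the labelled read length of 75 bases. In the first 90 bases the differences lie mostly at the last base of a codon, and more densely than over the whole coding sequence. Capitals mark the 17 bases that differ between the actins, from GENCODE 29 transcripts.
ACTB: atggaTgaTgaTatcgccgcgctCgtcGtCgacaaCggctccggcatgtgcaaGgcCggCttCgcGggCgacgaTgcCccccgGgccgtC
ACTG1: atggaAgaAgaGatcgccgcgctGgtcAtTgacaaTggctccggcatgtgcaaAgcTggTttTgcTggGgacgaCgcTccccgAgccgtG
The beta-thymosins are printed whole because both were lower after SNP, TMSB4X by the most of all members, and their coding sequences have only 135 bases each. Capitals mark the 37 bases that differ between them, and the longest identical run is 10 bases.
TMSB4X: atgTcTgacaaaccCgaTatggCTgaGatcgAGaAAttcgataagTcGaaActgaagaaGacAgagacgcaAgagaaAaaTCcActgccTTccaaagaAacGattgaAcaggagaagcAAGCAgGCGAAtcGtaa
TMSB10: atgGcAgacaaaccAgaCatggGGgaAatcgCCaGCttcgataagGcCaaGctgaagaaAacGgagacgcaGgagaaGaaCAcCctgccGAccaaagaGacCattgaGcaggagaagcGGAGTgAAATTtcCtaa
The other pairs were further apart. The profilins had 60.3% identity over 423 bases, the cofilins 70.1% over 501 bases and the alpha-actinins 80.6%, with a longest identical run of 73 bases in the last pair.

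Processed pseudogenes are a second source of shared reads. ACTG1 has 20 annotated pseudogenes, of which ACTG1P17 held 56 counts over all libraries, or 0.232% of the ACTG1 counts. CFL1 has 8, led by CFL1P1 with 58 counts (1.15% of CFL1), and PFN1 has 10, led by PFN1P11 with 5 counts. The 10 pseudogenes of ACTB, the 6 of TMSB4X, and the 2 each of TMSB10 and ACTN4 held no count. Of all stretches of 75 bases in the principal transcript, 14.0% in TMSB4X also occur in another gene, mostly BCAS4 (330 counts), and 14.4% in ACTN4, mostly the neighbouring CAPN12 (12 counts). This share was 8.13% in PFN1, 3.71% in CFL1, 2.71% in ACTB and 0 in the other 5 members. How the authors assigned reads that fit several genes is not given in the sources used here.

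Promoter sequences were at hand for 8 members, at 13 start sites, from the RefSeq table of GRCh38.p14; ACTB and PFN2 are not among them. A CArG box, searched on both strands, was found in ACTG1 and at the third of the ACTN1 start sites, and at no other of the 13. It occurs in 454 of the 35116 promoters in the table (1.29%). The 250 bases before the start of ACTG1 (chr17:81512800-81513049, minus strand) are shown with the CArG box in capitals, its first base 94 bases before the start.
ACTG1 promoter: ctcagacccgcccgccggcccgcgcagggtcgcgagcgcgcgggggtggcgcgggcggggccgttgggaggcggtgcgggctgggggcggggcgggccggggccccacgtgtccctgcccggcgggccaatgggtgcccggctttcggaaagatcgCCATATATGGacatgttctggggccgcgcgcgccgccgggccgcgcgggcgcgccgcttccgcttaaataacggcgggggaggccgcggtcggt
The first start site of each of the 8 members held at least 1 GC box (GGGCGG, on either strand). Start site 2 of CFL2 and of ACTN1 did too, while sites 3 and 4 of ACTN1 and site 2 of ACTN4 held none. Of all promoters, alternative start sites included, 45.0% held at least 1. The TATA box was searched only as the letters TATAAA, on either strand, which 11.5% of promoters held. Among the members these letters were found only at the same ACTN1 start site as the CArG box, on the opposite strand (TTTATA). Looser forms were not searched, and the TMSB10 promoter holds the letters TATATAA. A CArG box can contain the letters TATAAA, but at this ACTN1 site the matches lie apart, and matches of the GC box can overlap each other. A match describes the letters and is not a binding site.

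ACTB encodes beta-actin, the main cytoplasmic actin of non-muscle cells (ENSG00000075624; chromosome 7, 5527147 to 5563784, minus strand, GRCh38; 8 merged exons of 3519 bases). The control libraries a and b held 12607 and 10898 of its counts, and the SNP libraries a and b held 7663 and 8062. Scaled to library size these are 1944, 1935, 965 and 1045 CPM. Both SNP libraries lay far below both control libraries, and the control replicates almost coincided (1940 ± 6.66 against 1005 ± 57.0 CPM, mean ± SD, n = 2 each). The level in control was 1.93-fold that in SNP, a log2 fold change of -0.95 (SE 0.083) from edgeR. ACTG1 encodes gamma-actin, which differs from beta-actin in a few residues at its start (ENSG00000184009; chromosome 17, 81509971 to 81523847, minus strand; 6 merged exons). Its levels were 1029 and 1203 CPM in control and 645 and 719 CPM in SNP libraries. The groups did not overlap, though the control replicates were further apart than for ACTB, and the log2 fold change was -0.71 (SE 0.094).

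**Figure D1:**
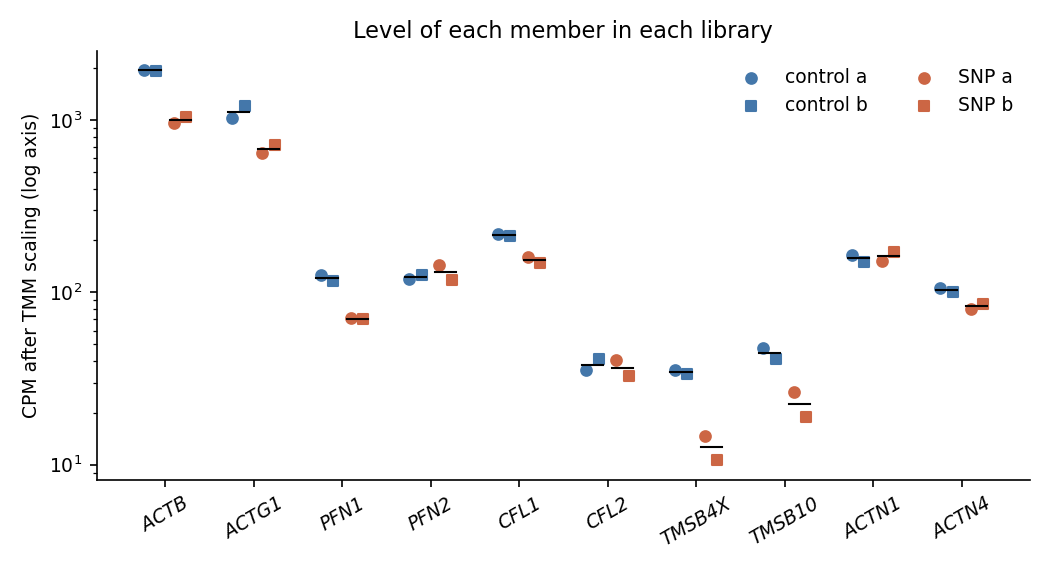
Level of each of the 10 members in each library (CPM, log axis), with points for the 2 control and 2 SNP libraries and lines at the group means. ACTB, ACTG1, PFN1, CFL1, TMSB4X, TMSB10 and ACTN4 have both SNP points below both control points, while the points of PFN2, CFL2 and ACTN1 overlap.

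The profilins parted by paralog. PFN1, the general form (ENSG00000108518; chromosome 17, 4945652 to 4949061, minus strand; 3 merged exons), had 127 and 116 CPM in control and 71.1 and 69.6 CPM in SNP libraries, with a log2 fold change of -0.79 (SE 0.110). The groups did not overlap. PFN2, the form enriched in brain (ENSG00000070087; chromosome 3, 149964904 to 150050788, minus strand; 7 merged exons), had 119 and 126 CPM in control and 145 and 117 CPM in SNP libraries. Here SNP a was the highest and SNP b the lowest of the 4 libraries, and the log2 fold change was 0.10 (SE 0.114).

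Both beta-thymosins were lower after SNP. TMSB4X (ENSG00000205542; chromosome X, 12975108 to 12977227, plus strand; 2 merged exons) encodes thymosin beta-4, the classical sequestering peptide. It was counted 231 and 190 times in control and 117 and 82 times in SNP libraries, or 35.6, 33.7, 14.7 and 10.6 CPM. The groups were well apart, and control was 2.73-fold above SNP, a log2 fold change of -1.45 (SE 0.185). TMSB10 (ENSG00000034510; chromosome 2, 84905625 to 84906675, plus strand; 3 merged exons of 496 bases) encodes thymosin beta-10, abundant in developing neural tissue. It had 47.7 and 40.8 CPM in control and 26.4 and 18.8 CPM in SNP libraries, also without overlap, with a log2 fold change of -0.97 (SE 0.169). SNP b was the lower SNP library for both thymosins, and without it the log2 fold changes were -1.23 for TMSB4X and -0.74 for TMSB10, so that TMSB10 then lay above ACTB.

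The cofilins parted like the profilins. CFL1, the non-muscle form (ENSG00000172757; chromosome 11, 65823022 to 65862026, minus strand; 12 merged exons), had 217 and 214 CPM in control and 161 and 149 CPM in SNP libraries, with no overlap and a log2 fold change of -0.48 (SE 0.099). It shares 1116 of its 5863 exonic bases with other genes, 759 of them with MUS81, so some of its reads could belong there. CFL2, the form best known from muscle (ENSG00000165410; chromosome 14, 34706769 to 34714823, minus strand; 6 merged exons), had 35.5 and 40.8 CPM in control and 40.3 and 32.8 CPM in SNP libraries. These values interleaved, and the log2 fold change was -0.06 (SE 0.151).

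Of the alpha-actinins, ACTN1 (ENSG00000072110; chromosome 14, 68874143 to 68979440, minus strand; 28 merged exons) encodes a bundler of stress fibres and adhesions. It had 164 and 151 CPM in control and 153 and 172 CPM in SNP libraries, with interleaved groups and a log2 fold change of 0.05 (SE 0.104). ACTN4 (ENSG00000130402; chromosome 19, 38647649 to 38731583, plus strand; 24 merged exons) encodes the form also found in the nucleus. It had 105 and 101 CPM in control and 80.3 and 85.3 CPM in SNP libraries. The groups did not overlap, but the distance was the smallest among the members that parted, with a log2 fold change of -0.32 (SE 0.110). ACTN4 passed the threshold of an adjusted p under 0.05 only in part of the alternatives: without control a, control b or SNP a it did not, at log2 fold changes of -0.29, -0.35 and -0.27, and DESeq2 did not call it.

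**Figure D2:**
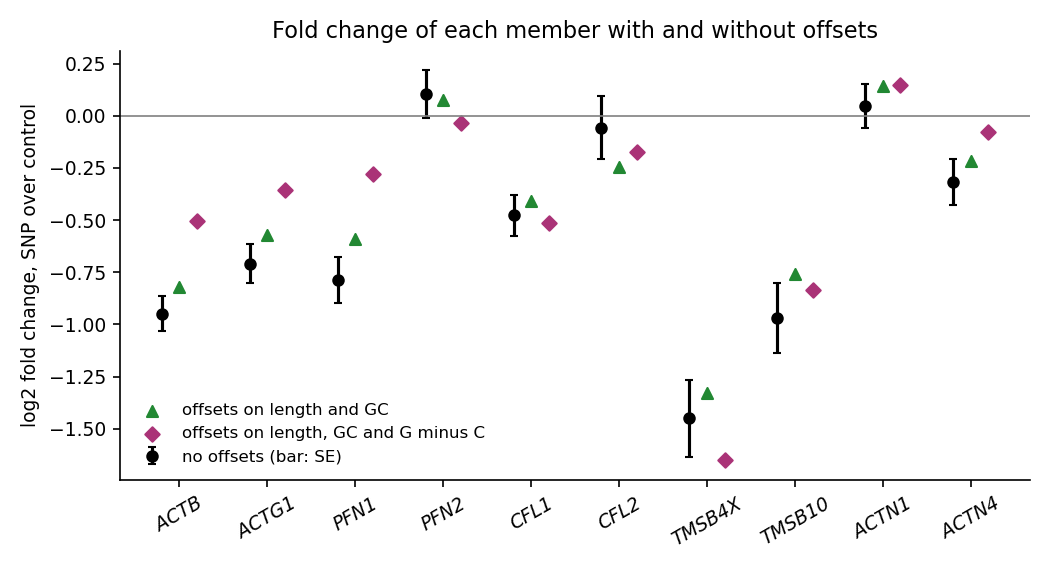
Log2 fold change of SNP over control for the 10 members, without offsets (circles, bars of 1 SE) and with offsets. Triangles use offsets on length and GC content, and diamonds add guanine minus cytosine content. Without offsets TMSB4X is lowest at -1.45, and TMSB10, ACTB, PFN1 and ACTG1 lie between -0.97 and -0.71. PFN2, CFL2 and ACTN1 then lie near 0. With guanine minus cytosine in the offsets TMSB4X is lowest at -1.65, and CFL2 lies at -0.25 with offsets on length and GC content.

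All 10 members passed the filter on low counts. In the fit across 14759 genes, 7 of the 10 had an adjusted p under 0.05, all of them lower in SNP, in a comparison where 26.2% of all genes tested passed and 12.6% passed as lower. With the replicate letter as a block 7 members and 30.4% of all genes passed. The same 7 had groups that did not overlap, which held for 64.0% of all genes and, with SNP lower, for 32.3%. Since the choice of members used this contrast, nothing is read from these counts. The median log2 fold change was -0.59 for the members and -0.0042 for all genes tested.

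Levels of different genes were compared per length, in transcripts per 1000000 (TPM). The lengths implied by the authors' values were 1705 bases for TMSB4X and 5026 for CFL1, whose principal transcripts have 495 and 1234 bases. For TMSB10 and CFL2 they were 496 and 7179 bases, against 496 and 6747. The order of genes by TPM therefore depends on these lengths. In control libraries the order was ACTB, ACTG1, TMSB10, PFN1, CFL1, PFN2, TMSB4X, ACTN4, ACTN1 and CFL2, from 2802 ± 28.3 TPM for ACTB down to 23.0 and 27.0 TPM for CFL2, and the ranges of neighbours in this order did not overlap. After SNP the order changed below the actins. The range of PFN2 (211 and 179 TPM) overlapped those of TMSB10 (266 and 198 TPM) and PFN1 (179 and 183 TPM), which did not overlap each other. TMSB4X moved from seventh place, at 97.4 and 94.0 TPM, to a level of 43.1 and 32.6 TPM, below both alpha-actinins, whose ranges now overlapped. Among all genes ranked by TPM, ACTB held place 17 in both control libraries and places 24 and 22 in SNP libraries, and ACTG1 went from place 21 in both to places 34 and 29.

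The 10 genes together took 0.379% and 0.397% of all gene counts in control libraries and 0.227% and 0.244% in SNP libraries. The actins made up most of the difference, with ACTB going from 0.193% to 0.100% and ACTG1 from 0.111% to 0.0680% on average, while the other 8 members went from 0.0834% to 0.0671%. The actins' part of the members' counts was 78.5 ± 1.05% before and 71.4 ± 2.09% after SNP (mean ± SD, n = 2 each). The summed TPM of ACTB and ACTG1 was 4567 ± 247 in control and 2752 ± 268 in SNP libraries. The summed TPM of the 6 profilin, thymosin and cofilin genes was 1196 ± 43.7 and 829 ± 81.2. The ratio of this second sum to the first was 0.279 and 0.246 in control and 0.346 and 0.262 in SNP libraries, so it overlapped between the groups.

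Ratios within a library do not depend on how libraries were scaled, but the base composition of the paired genes can differ. For each of the 5 pairs, the ratio lay apart in the groups. The share over other pairs of genes was not computed, and for single genes 64.0% of those tested lay apart. With 2 libraries against 2 an exact permutation test cannot give a two-sided p below 0.333, so none is reported. The ratio of ACTG1 to ACTB was 0.579 and 0.680 in control and 0.732 and 0.752 in SNP libraries. PFN2 stood at 0.542 and 0.623 of the PFN1 level in control and at 1.18 and 0.975 in SNP libraries. With the base composition offsets described below, the log2 fold changes of this pair lay closer together, at -0.04 for PFN2 and -0.28 for PFN1 in place of 0.10 and -0.79. CFL2 over CFL1 was 0.114 and 0.134 against 0.176 and 0.154. TMSB10 over TMSB4X was 4.60 and 4.16 against 6.17 and 6.08, with TMSB4X the lower of the pair in log2 fold change. The height of such ratios depends on the implied lengths given above. In counts, TMSB10 had 309 and 230 and TMSB4X 231 and 190 in control libraries. The ratio of ACTN4 to ACTN1 was the one that was lower after SNP, at 0.914 and 0.863 against 1.12 and 1.17 in control. With the base composition offsets, ACTN4 (-0.08) and ACTN1 (0.15) also lay closer together in log2 fold change. So did ACTG1 (-0.36) and ACTB (-0.51), and CFL2 (-0.17) and CFL1 (-0.51), while TMSB10 (-0.84) and TMSB4X (-1.65) lay further apart.

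**Figure D3:**
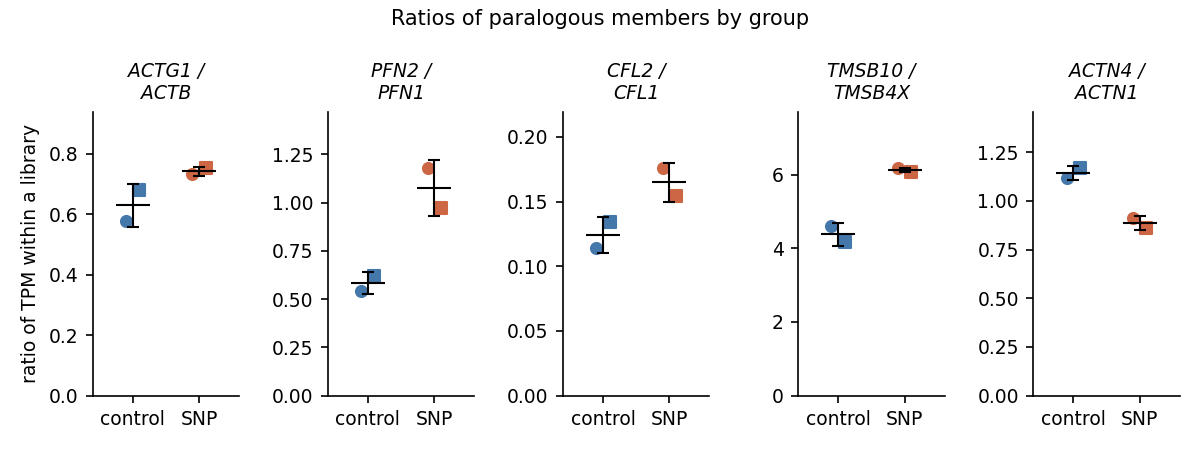
Ratio of TPM between paralogous members in each library, with 1 panel per pair, points for libraries, horizontal lines for group means and bars of 1 SD (n = 2). The groups are apart in every panel, and 64.0% of single genes tested also had groups apart. PFN2 over PFN1 has a mean of 0.582 in control and 1.08 in SNP. ACTN4 over ACTN1 lies lower in SNP, at 0.889 against 1.14.

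The log2 ratio of SNP over control varied with the base composition of transcripts across all genes, so each member was set beside genes of like composition whose mean level was 4 CPM or more. The measure is guanine minus cytosine, in percentage points of the transcript bases. Over 10 equal groups of genes ordered by it, the median log2 fold change went from -0.45 in the lowest to 0.39 in the highest. ACTB (-4.89 points) and PFN1 (-3.80 points) lie at the cytosine-rich end, where the genes within 0.5 points had medians of -0.45 and -0.44. ACTB stood at percentile 7.84 of its 204 such neighbours, PFN1 at percentile 15.2 of 361, and ACTG1 (-2.00 points) at percentile 11.6 of 860. The thymosins and CFL1 lie on the guanine-rich side, where medians were above 0. There TMSB4X (4.43 points) stood at percentile 0.127 of 786 genes, TMSB10 (1.81 points) at percentile 0.431 of 2090 and CFL1 (1.43 points) at percentile 6.60 of 2029. ACTN4 was near the middle of its neighbours, at percentile 45.2 of 954.

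Per-library offsets fitted on length, GC content and this measure gave log2 fold changes of -0.51 for ACTB, -0.36 for ACTG1 and -0.28 for PFN1. These are smaller than without offsets, and PFN1 and ACTN4 (-0.08) no longer passed the threshold. With the same offsets TMSB4X was at -1.65, TMSB10 at -0.84 and CFL1 at -0.51. The part of base composition in the differences of ACTB, ACTG1, PFN1 and ACTN4 was not tested beyond these values.

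**Figure D4:**
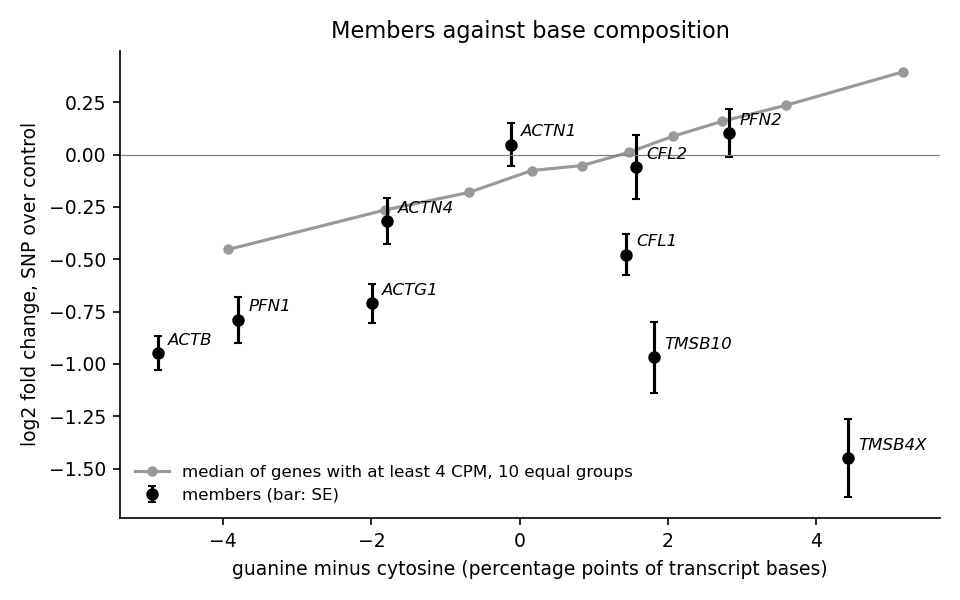
Log2 fold change (SNP over control) of the 10 members, with bars of 1 SE, against guanine minus cytosine in their transcripts, beside the medians of genes at a mean level of 4 CPM or more in 10 equal groups from -0.45 to 0.39 (grey line). TMSB4X, TMSB10 and CFL1 lie below the line on the guanine-rich side, and ACTN4, CFL2 and PFN2 lie near it.

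The wider actin machinery was described from 13 lists by role, without the members. Of their 148 genes, 147 were in the tables and 133 were tested. Of these, 23 rose and 16 fell, or 39 in all, where 26.2% of all genes passed, 13.6% as higher and 12.6% as lower. In counts of genes, here and below, rose and fell mean passing an adjusted p under 0.05. Adjusted p-values are from edgeR (quasi-likelihood, Benjamini-Hochberg). The median log2 fold change was 0.01, and at an unadjusted p under 0.05 the count was 57. Without control a 21 genes passed (10 higher, 11 lower), without control b 22 (13 and 9) and without SNP a 28 (12 and 16), so which direction held more genes depended on the libraries used. With the base composition offsets 31 passed (18 and 13).

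Genes that start and cap filaments showed single calls in each direction, where 13.6% of all genes tested passed as higher and 12.6% as lower. The ARP2/3 complex, which nucleates branched filaments, had 1 of 10 tested subunits called in edgeR, ACTR2 (0.39 on the log2 scale, adjusted p = 0.0102), which was higher; at an unadjusted p under 0.05 it had 2 higher and 2 lower. Among 11 tested activators of that complex 1 rose and 2 fell. Cortactin, CTTN, which stabilises branches, rose from 154 and 146 CPM in control to 253 and 232 CPM in SNP libraries (log2 fold change 0.69, SE 0.0998, adjusted p = 3.9e-05), while WASF1 and WASF2, subunits of the WAVE complex, had log2 fold changes of -0.44 and -0.34. Of 14 formins and other nucleators of straight filaments, 2 rose and 2 fell. FHOD1 fell from 34.5 and 41.9 CPM to 14.98 and 18.7 CPM (log2 fold change -1.18, adjusted p = 4.5e-05), though it shares 571 exonic bases with SLC9A5. FMN2, a neuronal formin, fell from 113 and 111 CPM to 76.2 and 80.0 CPM (log2 fold change -0.52, adjusted p = 0.0013). FMNL2 (0.28) and SPIRE2 (0.47) passed as higher. Of 10 cappers, which block filament ends, CAPZA2 passed as higher (0.37) and ADD2 as lower (-0.35). Leaving out single libraries ended several of these calls. Without control a, ACTR2 (0.39), WASF1 (-0.41), WASF2 (-0.20), FMNL2 (0.25), SPIRE2 (0.48), CAPZA2 (0.30) and ADD2 (-0.36) did not pass. Without control b, WASF1 (-0.47), FMNL2 (0.30), SPIRE2 (0.46), CAPZA2 (0.44) and ADD2 (-0.35) did not. Without SNP a, ACTR2 (0.22), WASF2 (-0.27), FMNL2 (0.24), CAPZA2 (0.31) and ADD2 (-0.28) did not, nor did SPIRE2 without SNP b (0.30). The counts per list moved with this: without control a they were 0 for the complex, 1 for its activators, 2 for the formins and 0 for the cappers. Without control b the formins had 2 and the cappers 0, without SNP a the cappers had 1, and without SNP b the complex had 3. With the base composition offsets ACTR2 (-0.052) and CAPZA2 (-0.13) turned negative, and WASF1 (-0.06) and WASF2 (-0.01) did not pass.

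Genes that act on monomers and on cofilin came next, beside 13.6% of all genes tested that passed as higher and 12.6% as lower. Of 15 other monomer binders and severing factors 3 passed in edgeR, all higher. At an unadjusted p under 0.05 there were 4 higher and 1 lower, and by sign 8 lay above 0 and 7 below. WDR1, a cofactor of cofilin in disassembly, had a log2 fold change of 0.42, and SVIL, a membrane-linked severing relative, 0.60; without control a neither passed (0.36 and 0.52), and the list had no gene called. Of 13 kinases and phosphatases that control cofilin 2 rose and 4 fell, and 2 passed with the base composition offsets. LIMK1, the kinase that inactivates cofilin, fell from 62.5 and 63.2 CPM to 41.3 and 41.8 CPM (log2 fold change -0.60, SE 0.126, adjusted p = 0.0013). PDXP, a cofilin phosphatase, fell by 0.67 on the log2 scale, with 1378 exonic bases shared with Z83844.3, and did not pass without control b (-0.56) or with base composition offsets (-0.29). The kinases ROCK1 and ROCK2, which act upstream of LIMK1, were higher. ROCK1 rose from 100.4 and 92.5 CPM to 165 and 145 CPM (log2 fold change 0.68, adjusted p = 1.1e-04), and ROCK2 from 199 and 188 CPM to 306 and 281 CPM (0.60, adjusted p = 1.2e-04), the latter at 0.17 and below the threshold with base composition offsets.

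Crosslinkers and motor genes passed in both directions, where 13.6% of all genes tested passed as higher and 12.6% as lower. Of 11 crosslinkers tested 3 rose and 1 fell, and by sign 7 lay above 0 and 4 below. FLNC, a filamin, rose from 14.96 and 14.03 CPM to 24.4 and 33.7 CPM (log2 fold change 1.00, SE 0.192, adjusted p = 6.0e-04). FSCN1, the fascin that bundles filaments in filopodia, fell from 292 and 283 CPM to 182 and 190 CPM (-0.63, adjusted p = 5.8e-05). Its relative FSCN2 had 4 and 2 counts in control, about the floor of 3 counts, and 69 and 95 counts in SNP libraries. Of 9 tropomyosin and non-muscle myosin II genes 4 rose and 1 fell, and 3 passed without SNP a or without control b. MYH9, a myosin heavy chain, rose from 259 and 277 CPM to 405 and 472 CPM (0.71, SE 0.0983, adjusted p = 2.4e-05). The tropomyosin TPM2 had a log2 fold change of 1.06, which was 0.61 and no longer passed without SNP a. The myosin light chain MYL12B fell by 0.65 on the log2 scale and did not pass without control b (-0.49) or SNP b (-0.37). Of the 4 muscle-type actins 1 was expressed enough to be tested, ACTA2, at a log2 fold change of 0.56 that did not pass (adjusted p = 0.157), with 896 exonic bases shared with other genes, 516 of them with ACTA2-AS1. With the base composition offsets ACTA2 did pass, at 0.89.

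**Figure D5:**
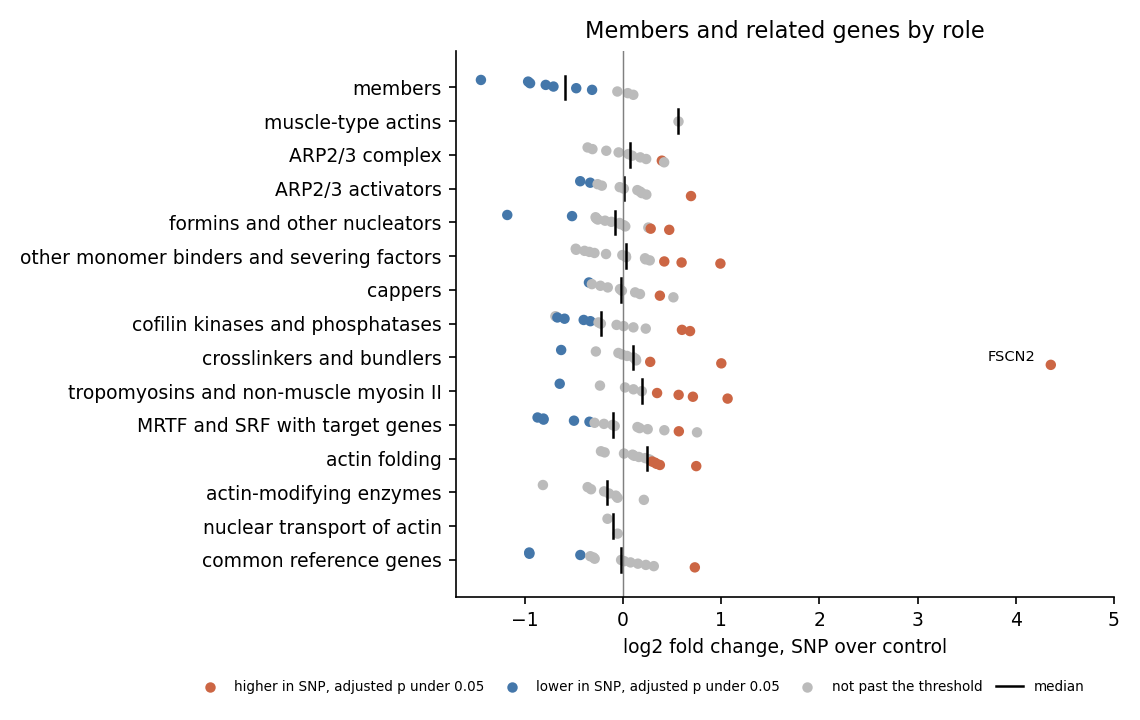
Log2 fold change of SNP over control for each tested gene of the members, 13 actin pathway lists and common reference genes, with a bar at the median of each list. Orange and blue points passed an adjusted p of 0.05 as higher and lower, grey points did not, and FSCN2 (4.36, on few control counts) lies far to the right. The median is -0.59 for the members and between -0.23 and 0.56 for the other lists.

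Of 15 tested genes of the MRTF and SRF axis, 1 rose and 5 fell, and 3 passed without control b or with the base composition offsets. SRF itself rose from 27.3 and 27.2 CPM to 40.0 and 40.7 CPM (log2 fold change 0.57, SE 0.147, adjusted p = 0.0066); without control a (0.57) or control b (0.56) it did not pass. Its coactivators were lower, MRTFA at -0.50 (adjusted p = 0.0215) and MRTFB at -0.34 (adjusted p = 0.0166). MRTFA did not pass without control b (-0.36) or SNP a (-0.42), MRTFB did not pass without control a (-0.36), control b (-0.34) or SNP b (-0.25), and neither passed with base composition offsets (-0.14 and -0.06). The SRF targets ZYX, zyxin of focal adhesions, and TAGLN2, a transgelin, fell by 0.81 and 0.87 on the log2 scale (adjusted p = 2.4e-04 and 6.2e-05). ZYX had 73.3 and 84.5 CPM in control and 38.02 and 51.7 CPM in SNP libraries, and TAGLN2 had 66.0 and 81.0 against 38.6 and 41.5 CPM. The target TGFB1I1 also passed as lower (-0.81). Other targets lay above 0 without passing, among them TAGLN (0.75), TUFT1 (0.42), CALD1 (0.25) and VCL (0.17). In the whole list of 15, 6 genes lay above 0 and 9 below. Of all genes tested, 13.6% passed as higher and 12.6% as lower. Across the pathway genes named here, DESeq2 did not call WASF2, FMNL2, SPIRE2, CAPZA2, MRTFA and MYL12B. With the read totals implied by RPKM, WASF1, WASF2, FMNL2, ADD2, MRTFA and MRTFB did not pass. Several named genes that still passed with the base composition offsets had smaller log2 fold changes there. These were 0.30 for CTTN, -0.37 for LIMK1, 0.32 for ROCK1, -0.25 for FSCN1, 0.35 for MYH9, -0.37 for ZYX and -0.49 for TAGLN2. FLNC (1.02) and FHOD1 (-0.92) lay nearer to their values without offsets.

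Of the 14 genes of the chaperonin and prefoldin complexes, which fold new actin, 5 passed in edgeR, all higher. Over all genes tested 13.6% passed as higher. The list median was 0.24 on the log2 scale, and 6 genes of the list had an unadjusted p under 0.05, again all higher. Only 2 passed without control a, control b or SNP a, and 1 with the base composition offsets. CCT6A, a chaperonin subunit, rose from 175 CPM in each control library to 327 and 260 CPM (0.75, SE 0.109, adjusted p = 4.2e-05), and CCT8 had a log2 fold change of 0.37. With the base composition offsets CCT6A was at 0.32. CCT8 did not pass without control b (0.29) or SNP a (0.22), and was at -0.015 with base composition offsets. Of the 8 enzymes that modify actin 0 passed in edgeR, in DESeq2 or in limma-voom at an adjusted p under 0.05, and 1 had an unadjusted p under 0.05 in edgeR. MICAL1, MICAL2 and MICAL3, which oxidise actin, had log2 fold changes of -0.07, -0.14 and -0.19 (adjusted p = 0.716, 0.751 and 0.159). MSRB1, which reverses that oxidation, was at -0.82 (SE 0.351, adjusted p = 0.0905), on low levels of 5.09 and 6.92 CPM in control and 3.65 and 3.11 CPM in SNP libraries. Of the 2 transporters that move actin between nucleus and cytoplasm 0 passed by any of the 3 tools, adjusted or, in edgeR, unadjusted, with a median of -0.11. With the base composition offsets IPO9, an importin, passed in edgeR at -0.20.

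ACTB is itself widely used as a reference in RNA measurements, so 13 other common reference genes were set beside it. Of these 1 rose and 3 fell, where 26.2% of all genes tested passed, 13.6% as higher and 12.6% as lower. GAPDH fell from 988 and 1128 CPM in control to 509 and 582 CPM in SNP libraries (log2 fold change -0.96, SE 0.0946, adjusted p = 4.7e-07). RPLP0 fell from 694 and 835 CPM to 428 and 359 CPM (-0.96, adjusted p = 1.5e-06), and PPIA by 0.44 on the log2 scale. TFRC, the transferrin receptor, rose by 0.73 (adjusted p = 7.9e-05). With the base composition offsets GAPDH was at -0.52, RPLP0 at -0.85, PPIA at -0.47 and TFRC at 0.44. YWHAZ (0.07), PGK1 (-0.02) and HPRT1 (0.01) did not pass, and the median of the list was -0.02. That median was -0.18 without SNP a, 0.10 without SNP b and -0.28 with the base composition offsets, where 1 gene was higher and 5 were lower.

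Genes with the pattern most like that of the actins over the 4 libraries were found by Euclidean distance of centred log2 CPM over 4978 genes whose mean level was 50 CPM or more. For ACTB they were NAV1 (distance 0.0350), CKB (0.0602) and ATCAY (0.0736), with log2 fold changes of -0.95, -0.97 and -0.88. NAV1 encodes a neuronal navigator protein and CKB the brain creatine kinase. For ACTG1 they were LDLRAD3 (0.0251), RACK1 (0.0567) and KLHDC3 (0.0609), with log2 fold changes of -0.70, -0.66 and -0.74. The likeness includes the difference between replicates: RACK1 had 740 and 881 CPM in control, with control b the higher, as for ACTG1, and 489 and 535 CPM in SNP libraries.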

How the data were processed

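Gene tables of 4 SH-SY5Y libraries, 2 control and 2 SNP, were used, grouped by sample title. Whole-number read counts per gene, without normalization, were deposited by the authors as the expression values. The TPM column deposited by the authors sums to 1000000 per library. Per the file headers a further column gives RPKM, scaled by length and by a read total larger than the summed counts. The genome build GRCh38 comes from the submitters' processing notes; the aligner, counter and use of strand are not given in the sources used here.

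Counts were filtered with filterByExpr (minimum count 10, minimum total 15), scaled by TMM and compared by the quasi-likelihood test of edgeR 4.0.16 in R 4.3.3, adjusted by Benjamini-Hochberg across the 14759 tested genes, with a threshold of 0.05. CPM are per 1000000 TMM-scaled counts. Alternatives used DESeq2 1.42.0, limma 3.58.1 (voom), other filters and scalings, a replicate block, lowess offsets (span 0.5), genes without exonic overlap, a threshold of 0.01, and each library left out in turn. Positions, exons and base composition come from GENCODE 29, in which 57980 of 58243 gene identifiers were found. Scripts were tested on simulated counts. The members, lists and alternatives were chosen with earlier results of these data known. Named genes were, per list, up to 2 with the highest and 2 with the lowest log2 fold change among those past the threshold, with groups apart and a mean of at least 5 CPM, plus SRF, its coactivators, the MICAL genes, MSRB1 and GAPDH; further reference, marker and muscle actin genes are named after their values were seen.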

Additional observations from a re-analysis of the deposited data

How the results depend on the processing

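The 3861 genes past the threshold became 2415 with DESeq2's Wald test, 2224 at an adjusted p under 0.01 and 2018 among the 7241 genes without exonic overlap; leaving out 1 library gave 2447 to 4144. The 7 members became 5 with offsets that include guanine minus cytosine content and 3 of 4 tested without exonic overlap, and 6 to 7 with 1 library left out. The log2 fold changes of ACTB, ACTG1, CFL1, TMSB4X and TMSB10 stayed negative under the alternatives, with highest values of -0.51, -0.36, -0.41, -1.23 and -0.74. Because the members were chosen with this contrast known, their calls in refits of the same libraries are not read as support. The 39 pathway genes became 20 at 0.01 and 22 without exonic overlap, and 21 to 45 with 1 library left out. The guanine minus cytosine offsets called 20 of the 39 again and turned 4, among them ACTR2 (-0.052), CAPZA2 (-0.13) and CCT8 (-0.015). The 4 reference genes became 7 with length and GC offsets, with or without the block, and 4 to 5 with 1 library left out. With the read totals implied by RPKM, 63.1% of calls were higher against 51.9%, and the median of all genes moved to 0.06. The members' share was 0.407% in control outside mitochondrial counts, and 0.0474% in control and 0.0301% in SNP libraries of the RPKM totals. The replicate block gave 4487 genes, 7 members, 44 pathway genes and 5 reference genes; same-lettered libraries had a correlation of deviations of 0.055, so the letters were not taken as pairs. Members with 82 to 320 counts per library, such as TMSB4X and CFL2, had the widest standard errors. Of the alternatives listed, none was left out.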
